A study of Mus musculus with 30 samples.

Results

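The cryptochromes Cry1 and Cry2, the F-box protein Fbxl21, and the casein kinases Csnk1d and Csnk1e were followed through every probe that the array files name for these 5 genes, which gave 12 of the 41174 probes measured. The eye arrays were joined to the hypothalamus arrays by probe. RNA came from male adult mice on a C57Bl/6J background, either Per3-/- mice, a whole-body knockout in which a cassette replaces an exon of Period3, or their wild-type (WT) littermates. All mice were moved from a 12 h light and 12 h dark schedule to 17 cycles of 3.5 h light and 3.5 h dark, and were killed in the light in the last cycle, so that the data hold 1 time point and no rhythm. A hypothalamic block that includes the suprachiasmatic nucleus was taken from 8 WT and 8 Per3-/- mice, and the whole eye was measured in 7 mice of each genotype, with 1 array per mouse and tissue. Each value is a log2 signal relative to the 75th percentile of its array, so that a value of 0 is as bright as the 75th percentile.

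Cryptochromes are the repressors of the circadian clock. With the PERIOD proteins they enter the nucleus and block the transcription factors CLOCK and BMAL1, which drive Cry and Per genes through E-box elements in their promoters, and the loop closes once both repressors have been degraded. Casein kinases 1 delta and 1 epsilon, the products of Csnk1d and Csnk1e, phosphorylate PERIOD proteins and mark them for degradation, and mutations of these kinases change the period of the clock. FBXL21 is a substrate receptor of a ubiquitin ligase that binds cryptochromes.

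None of the 5 genes passed the test between Per3-/- and WT mice in either tissue, whereas each of them had probes called between the tissues, those of Cry2 only under some scalings of the arrays. The largest tissue differences were lower signals in the eye for Fbxl21 and Csnk1e and a higher signal for Cry1. For Csnk1d, the 2 probes nearer the 5′ end were higher in the eye, though not when arrays were centred on their median, and the 2 nearer the 3′ end were lower under every scaling tried.

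On the arrays as a whole, 68.0% to 80.8% of the probes were well above background, and intensities at the 75th percentile ran from 1131 to 2207. The labelled tissues were checked with marker genes. All 9 probes of 7 retinal genes were well above background on every eye array, and 11 of 12 probes of 11 hypothalamic genes were so on every hypothalamic array. Of the latter probes 8 were also well above background on every eye array, and 10 of the 12 were called higher in the hypothalamus. All 9 retinal probes were called higher in the eye. The summed signal of 4 pituitary genes ranged from 0.293 to 595 times the 75th percentile among the hypothalamic arrays, and that of choroid plexus genes from 0.208 to 10.5, and the part of this in the results below was not tested. The single Per3 probe lies far 3′ of the exon that was replaced and so does not check the deletion. Its mean signal was -3.46 in WT and -3.97 in Per3-/- hypothalamus (difference -0.51, SE 0.09, limma adjusted p = 0.067), and -3.13 and -3.58 in the eye (difference -0.45, SE 0.23).

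Cry1 encodes the repressor that acts most strongly on CLOCK and BMAL1. The probe of higher mean over all arrays, A_52_P420500, which is the dimmer one in the hypothalamus, lies at base 2670 of the transcript (chr10:84594731-84594790 in mm9, minus strand), and A_51_P302204 lies upstream of it at base 1904 (chr10:84606495-84606554). The upstream probe is shown because the probes gave tissue differences of unequal size. In it 43.3% of the bases are G or C, against 23.3% in the downstream probe.

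Cry1 A_51_P302204: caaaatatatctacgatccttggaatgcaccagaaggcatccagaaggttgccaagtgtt

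The lowest, median and highest signals of A_52_P420500 were -4.42, -3.49 and -3.39 in WT hypothalamus and -3.70, -3.43 and -3.12 in Per3-/- hypothalamus. In the eye they were -2.51, -2.17 and -1.90 in WT and -2.41, -2.11 and -1.70 in Per3-/- mice. All 14 eye arrays lay above all 16 hypothalamic arrays, and the genotypes overlapped within each tissue. The mean was 2.60-fold higher in the eye (1.38 log2, 95% interval 1.19 to 1.56, limma adjusted p = 1.49e-14), a difference larger than that of 80.0% of all probes. At A_51_P302204 the mean was -3.04 ± 0.11 (SD, n = 16) in the hypothalamus and -2.73 ± 0.25 (SD, n = 14) in the eye. That is a difference of 0.31 (SE 0.07), close to the median of all probes, and it was -0.08 under quantile normalization and -0.11 when arrays were centred on their median.

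Between genotypes, the downstream Cry1 probe had the largest difference of the 12 probes in the hypothalamus. WT mice had a mean of -3.62 ± 0.34 (SD, n = 8) and Per3-/- mice one of -3.40 ± 0.22 (SD, n = 8), a difference of 0.22 (SE 0.14, 95% interval -0.08 to 0.51, two-sided exact permutation p = 0.147). 3 Per3-/- arrays lay above every WT array, and the mean was higher in Per3-/- mice on 4 of 4 slides, by 0.07 to 0.41. WT replicate 1, at -4.42, stood apart from the other WT arrays, and without it the difference was 0.10 (SE 0.09), with Per3-/- mice higher on 3 of 4 slides and a highest value of 0.28. At the upstream probe the difference was -0.01 (SE 0.06). In the eye the differences were 0.05 (SE 0.12) downstream and 0.01 (SE 0.14) upstream.

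Cry2 encodes the other cryptochrome repressor. Its brighter probe, A_52_P248378, lies at base 3382 of the transcript (chr2:92244363-92244422, minus strand), and the dimmer A_51_P135542 at base 887 (chr2:92254083-92256348, a stretch longer than the 60 bases of the probe, which therefore maps in pieces). The dimmer probe is shown because it alone of the Cry2 probes was higher in the eye.

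Cry2 A_51_P135542: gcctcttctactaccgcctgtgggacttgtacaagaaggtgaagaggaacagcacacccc

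The lowest, median and highest signals of A_52_P248378 were 1.09, 1.25 and 1.37 in WT and 1.10, 1.18 and 1.30 in Per3-/- hypothalamus. In the eye they were 0.96, 1.15 and 1.21 in WT and 0.91, 1.18 and 1.22 in Per3-/- mice. The tissues overlapped here, with 6 of 14 eye arrays below all hypothalamic arrays, and this was the smallest tissue difference of the 12 probes. It came to -0.11 (SE 0.04, limma adjusted p = 0.0102), and was not called in Per3-/- arrays alone (-0.09, limma adjusted p = 0.127, where 11 of 12 member probes and 77.8% of all probes were called) or under quantile normalization (-0.02). With arrays centred on their median it was larger, at -0.54 (SE 0.05), and with normexp background correction it was -0.13 (SE 0.04), and both were called. A_51_P135542 was higher in the eye by 0.59 (95% interval 0.46 to 0.72), with all 14 eye arrays above all 16 hypothalamic arrays, but by 0.01 (SE 0.06) under quantile normalization.

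Between genotypes, A_51_P135542 had the lowest p among the members in the hypothalamus. WT mice had a mean of -4.29 ± 0.13 (SD, n = 8) and Per3-/- mice one of -4.44 ± 0.18 (SD, n = 8), a difference of -0.15 (95% interval -0.32 to 0.01, two-sided exact permutation p = 0.067, limma adjusted p = 0.991). 2 Per3-/- arrays lay below every WT array. In the eye the same probe differed by 0.05 (SE 0.11). A_52_P248378 differed by -0.04 (SE 0.05) in the hypothalamus and by -0.0017 (SE 0.07) in the eye.

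Fbxl21 encodes the cryptochrome-binding receptor of the ligase and showed the largest tissue difference. The brighter probe, A_51_P456838, lies at base 1854 of the transcript (chr13:56639037-56639096, plus strand), and A_52_P41239 at base 581 (chr13:56628517-56628576). The latter is shown because it carries the tissue difference at another place of the transcript.

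Fbxl21 A_52_P41239: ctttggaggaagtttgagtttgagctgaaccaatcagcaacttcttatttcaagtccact

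The lowest, median and highest signals of A_51_P456838 were -1.68, -1.58 and -1.48 in WT and -2.02, -1.60 and -1.53 in Per3-/- hypothalamus. In the eye they were -4.46, -4.25 and -3.78 in WT and -4.56, -4.26 and -4.13 in Per3-/- mice. Every eye array lay far below every hypothalamic array, in either genotype. The mean was 6.16-fold lower in the eye (-2.62 log2, 95% interval -2.74 to -2.51, limma adjusted p = 2.20e-26), and 95.6% of all probes had a higher difference. At A_52_P41239 it was 4.86-fold lower (-2.28, 95% interval -2.43 to -2.13), again without overlap, although this probe was well above background on only 5 of the 7 Per3-/- eye arrays. Both probes were thus lower in the eye, as they were under every scaling tried, but the size depended on the background. With normexp background correction the differences were -1.64 and -0.79, and under quantile normalization -3.08 and -2.91.

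The genotype differences of Fbxl21 were all below 0 and within the spread between mice. They were -0.07 (SE 0.07) and -0.12 (SE 0.10) in the hypothalamus and -0.11 (SE 0.10) and -0.06 (SE 0.11) in the eye, each for A_51_P456838 and A_52_P41239 in that order. Slide by slide, A_51_P456838 was lower in Per3-/- mice on 4 of 4 eye slides, by 0.01 to 0.45, and on 3 of 4 hypothalamic slides. The difference was -0.45 on eye slide 1, with 1 array per genotype, and -0.13 to -0.01 on the others. A_52_P41239 was higher in Per3-/- mice on 1 of 4 eye slides, by 0.30, and on 2 of 4 hypothalamic slides. With normexp background correction the eye differences turned to 0.20 (SE 0.29) and 0.34 (SE 0.34).

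**Figure D1:**
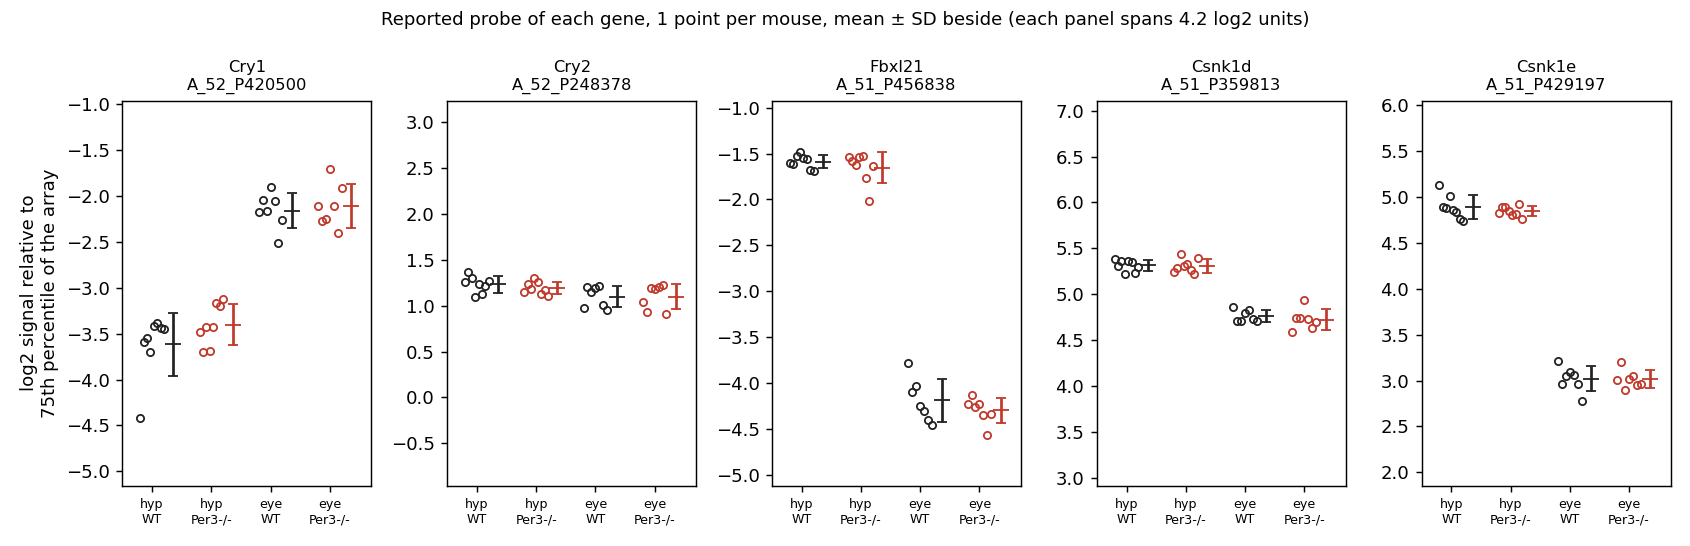
Signal of the probe with the highest mean over all arrays for each gene, in every mouse, as log2 relative to the 75th percentile of the array (vertical axis), by tissue and genotype, with the mean and SD beside the points. Eye and hypothalamus separate fully for Cry1, Fbxl21, Csnk1d and Csnk1e and overlap for Cry2, while WT (black) and Per3-/- (red) points overlap in every pair; 1 WT hypothalamic array of Cry1 lies at -4.42.

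Csnk1d encodes casein kinase 1 delta and was measured by 4 probes, all on the minus strand of chromosome 11. From 5′ to 3′ they are A_52_P477369 (chr11:120830435-120830494), A_51_P136277 (chr11:120825115-120825174), A_52_P11576 (chr11:120823464-120823523) and A_51_P359813 (chr11:120823086-120823145). The array files place the first of these at base 1222 of one Csnk1d transcript and the others at bases 1629, 3280 and 3658 of another. The most 5′ probe is shown because it and its neighbour went the other way from the 3′ pair.

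Csnk1d A_52_P477369: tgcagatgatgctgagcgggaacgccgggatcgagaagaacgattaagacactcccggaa

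The most 3′ probe, A_51_P359813, was the brightest. Its lowest, median and highest signals were 5.22, 5.33 and 5.38 in WT and 5.22, 5.30 and 5.44 in Per3-/- hypothalamus. In the eye they were 4.71, 4.72 and 4.86 in WT and 4.58, 4.72 and 4.94 in Per3-/- mice. All 14 eye arrays lay below all hypothalamic arrays, 1.48-fold lower in the mean (-0.57 log2, 95% interval -0.64 to -0.50, limma adjusted p = 3.77e-16). A_52_P11576 was 1.96-fold lower in the eye (-0.97, 95% interval -1.05 to -0.89), also without overlap. The 5′ probes were higher in the eye, A_51_P136277 by 0.49 (95% interval 0.41 to 0.58, without overlap) and A_52_P477369 by 0.36 (95% interval 0.26 to 0.46, with 13 of 14 eye arrays above all hypothalamic arrays). When arrays were centred on their median, these became 0.07 and -0.06 and were no longer called, while the 3′ probes stayed lower in the eye, at -1.39 and -0.99.

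Between genotypes the 4 Csnk1d probes differed by -0.03 to 0.01 in the hypothalamus (SE 0.04 to 0.08) and by -0.04 to 0.07 in the eye (SE 0.05 to 0.06). The eye value of A_51_P136277 came closest to a separation, with WT eyes at -0.16 ± 0.04 (SD, n = 7) and Per3-/- eyes at -0.08 ± 0.09 (SD, n = 7) (two-sided exact permutation p = 0.0752). 4 Per3-/- eye arrays lay above every WT eye array and 1 lay below.

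Csnk1e encodes casein kinase 1 epsilon. Its bright probe, A_51_P429197, lies at base 1385 of the transcript (chr15:79249597-79250373, minus strand, mapped in pieces), and A_52_P542419 at base 1561 (chr15:79249421-79249480). The lowest, median and highest signals of A_51_P429197 were 4.74, 4.87 and 5.13 in WT and 4.76, 4.84 and 4.93 in Per3-/- hypothalamus. In the eye they were 2.78, 3.06 and 3.22 in WT and 2.90, 3.01 and 3.20 in Per3-/- mice. The tissues did not overlap, and the mean was 3.61-fold lower in the eye (-1.85 log2, 95% interval -1.93 to -1.77, limma adjusted p = 2.18e-26), a lower difference than that of 91.4% of all probes. A_52_P542419 was dim, and well above background on 4 of 7 WT and 5 of 7 Per3-/- eye arrays. It was lower in the eye by 0.81 log2 (95% interval of the difference -1.04 to -0.59), but the difference was 0.05 (SE 0.16) with normexp background correction.

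Between genotypes A_51_P429197 differed by -0.05 (SE 0.05) in the hypothalamus and by -0.01 (SE 0.07) in the eye. For A_52_P542419 the values were -0.03 (SE 0.08) and 0.08 (SE 0.22), the latter with the widest interval of all member probes, -0.38 to 0.54.

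The comparison of genotypes asked whether the loss of Per3 went with another level of the genes that degrade or phosphorylate its partners. In the hypothalamus limma called 0 of the 12 probes at an adjusted p under 0.05, against 0.0413% of all probes, and in the eye 0 of 12, against 0.0194% of all probes. With equal replicate numbers as a block the eye count was again 0 of 12, and 1 in place of 8 over all probes. The genotypes overlapped at all 12 probes in each tissue. A lack of overlap was seen for 0.0437% of all hypothalamic probes and 0.0704% of all eye probes. No member probe reached an unadjusted p under 0.05 in either tissue, and the methods' unpaired test also called 0 of 12 in each. The differences ranged from -0.15 to 0.22 in the hypothalamus, where 10 of 12 were below 0, and from -0.11 to 0.08 in the eye, where 5 of 12 were. Their medians were -0.03 and 0.01, against -0.0132 and 0.00468 for all probes. The 95% intervals stayed within 1.25-fold in either direction for 10 of the 12 probes in each tissue, so a change of that size was outside the interval for most probes. The intervals that passed this limit were those of the downstream Cry1 probe and Fbxl21 A_52_P41239 in the hypothalamus and of Fbxl21 A_51_P456838 and Csnk1e A_52_P542419 in the eye. The test of whether the genotype effect itself differed between the tissues called 0 of 12 member probes (0.00486% of all probes, differences of -0.17 to 0.20), none at an unadjusted p under 0.05. With 8 against 8 and 7 against 7 mice, the smallest two-sided exact permutation p is 0.000155 and 0.000583.

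**Figure D2:**
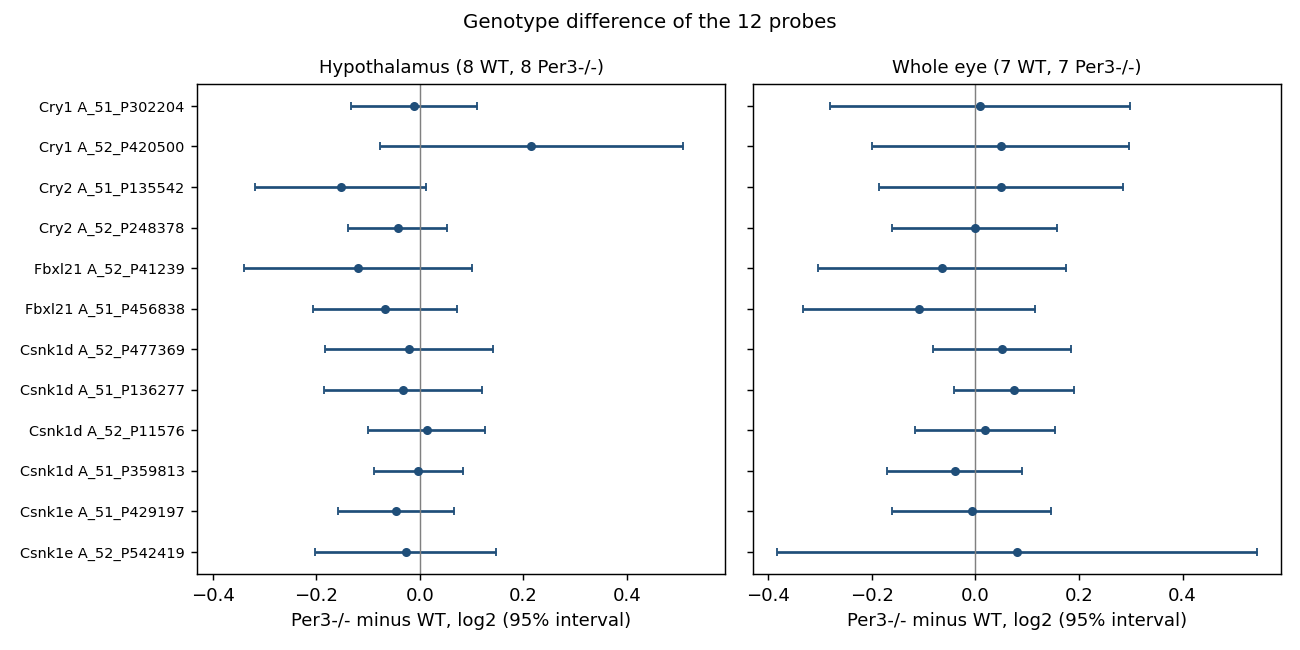
Per3-/- minus WT difference (horizontal axis, log2) with its 95% interval for the 12 probes, in hypothalamus (left) and whole eye (right). Every interval includes 0, and the points lie between -0.15 and 0.22 on the left and between -0.11 and 0.08 on the right.

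Between tissues limma called 12 of 12 member probes, where it called 83.1% of all probes, so that being called does not set these genes apart. 5 were higher and 7 lower in the eye, against 47.9% and 35.2% of all probes, and 8 of the 12 had no overlap between the tissues, against 48.9% of all probes. The median of all probes was itself shifted by 0.195 towards the eye, by -0.0712 under quantile normalization, by -0.227 with arrays centred on the median and by 0.370 with normexp background correction. Under those 3 settings the member probes called higher and lower in the eye numbered 3 and 6, 2 and 7, and 5 and 6. For all probes they were 19711 higher and 14497 lower as reported, 15582 and 17991 under quantile normalization, 13754 and 20332 with median centring, and 20998 and 11404 with normexp. Only the downstream Cry1 probe, both Fbxl21 probes, the 3′ Csnk1d probes and A_51_P429197 of Csnk1e were called in 1 direction under all 4 scalings. Each slide held arrays of 1 tissue, so tissue and slide cannot be told apart, and in bulk tissue fewer cells that make a transcript cannot be told apart from less RNA per cell.

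**Figure D3:**
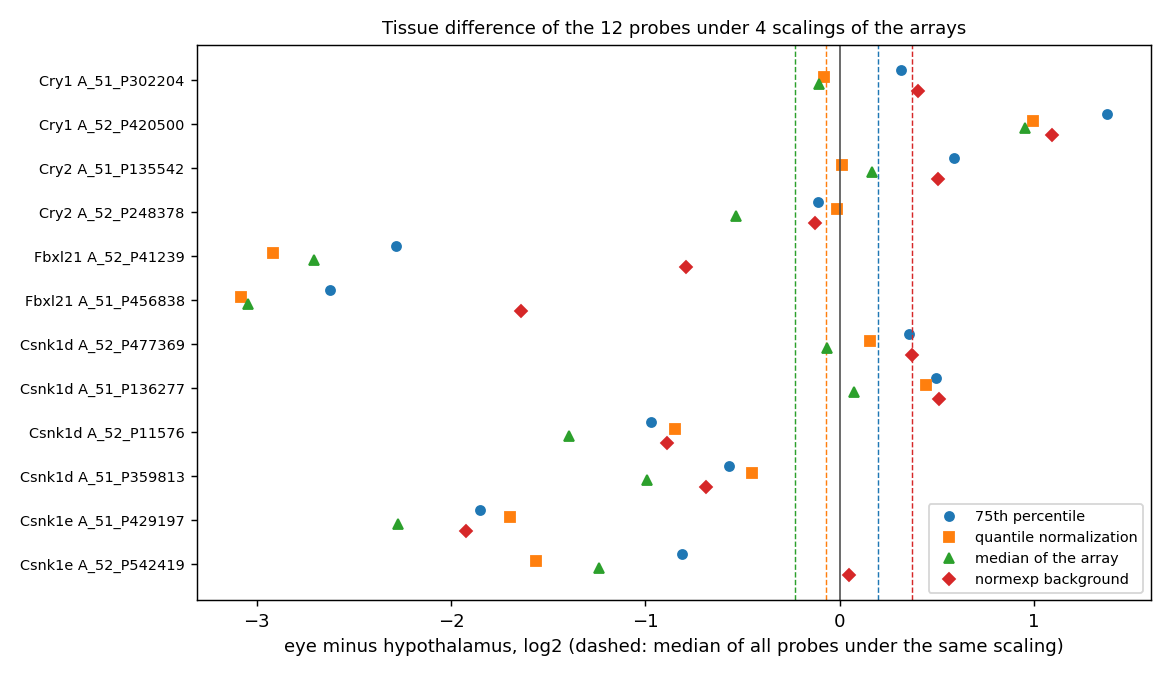
Eye minus hypothalamus difference of the 12 probes (horizontal axis, log2) under 4 scalings of the arrays, with the median of all probes under each scaling as a dashed line. The Fbxl21, 3′ Csnk1d and first Csnk1e points stay below 0 and the downstream Cry1 points above it, while the upstream Cry1, Cry2 and 5′ Csnk1d points move across or up to 0, and the dim Csnk1e probe crosses it with normexp. The brighter Cry2 probe comes up to 0 under quantile normalization but lies at -0.54 with arrays centred on the median.

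The disagreement between probes of 1 gene was measured within each of the 14 mice with both tissues. The labels do not name mice, so eye and hypothalamus arrays of the same genotype and replicate number were taken as 1 mouse. The measure was the tissue difference of the probe nearer the 3′ end minus that of the probe nearer the 5′ end. This comparison was chosen after the values were seen, covers 10 pairs of probes, and does not depend on how an array is centred. In Cry1 it was 1.04 ± 0.40 (SD, n = 14 mice, higher in 14 of 14, two-sided exact permutation p = 0.000122, the smallest these mice can give). It was 1.05 under quantile normalization and 0.668 with normexp. In Csnk1d the 4 comparisons of a 3′ probe with a 5′ probe gave -1.47, -1.33, -1.10 and -0.96, each below 0 in 14 of 14 mice, while the 2 neighbouring 5′ probes differed by 0.14 and the 2 3′ probes by 0.37. Under quantile normalization those 4 values ran from -1.29 to -0.63 and with normexp from -1.41 to -1.09, again below 0 in every mouse.

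In the other genes the disagreement did not hold under quantile normalization, although with normexp it was seen in 14 of 14 mice, at -0.647 in Cry2, -0.854 in Fbxl21 and 1.99 in Csnk1e. The Cry2 probes differed by -0.70 ± 0.33 (SD, n = 14 mice) but by -0.03 under that setting (two-sided exact permutation p = 0.702). The Fbxl21 probes differed by -0.33 ± 0.33 (SD, n = 14 mice) but by -0.16 (two-sided exact permutation p = 0.103), and those of Csnk1e by 1.03 ± 0.47 (SD, n = 14 mice) but by 0.13 (two-sided exact permutation p = 0.462). Among the 5994 genes with more than 1 probe well above background on all arrays, 25.4% had probes called in both directions between the tissues, as Csnk1d and Cry2 did. No probe of the 5 genes shared a run of over 17 bases with a probe of another gene, and the members shared at most 8 bases with each other.

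**Figure D4:**
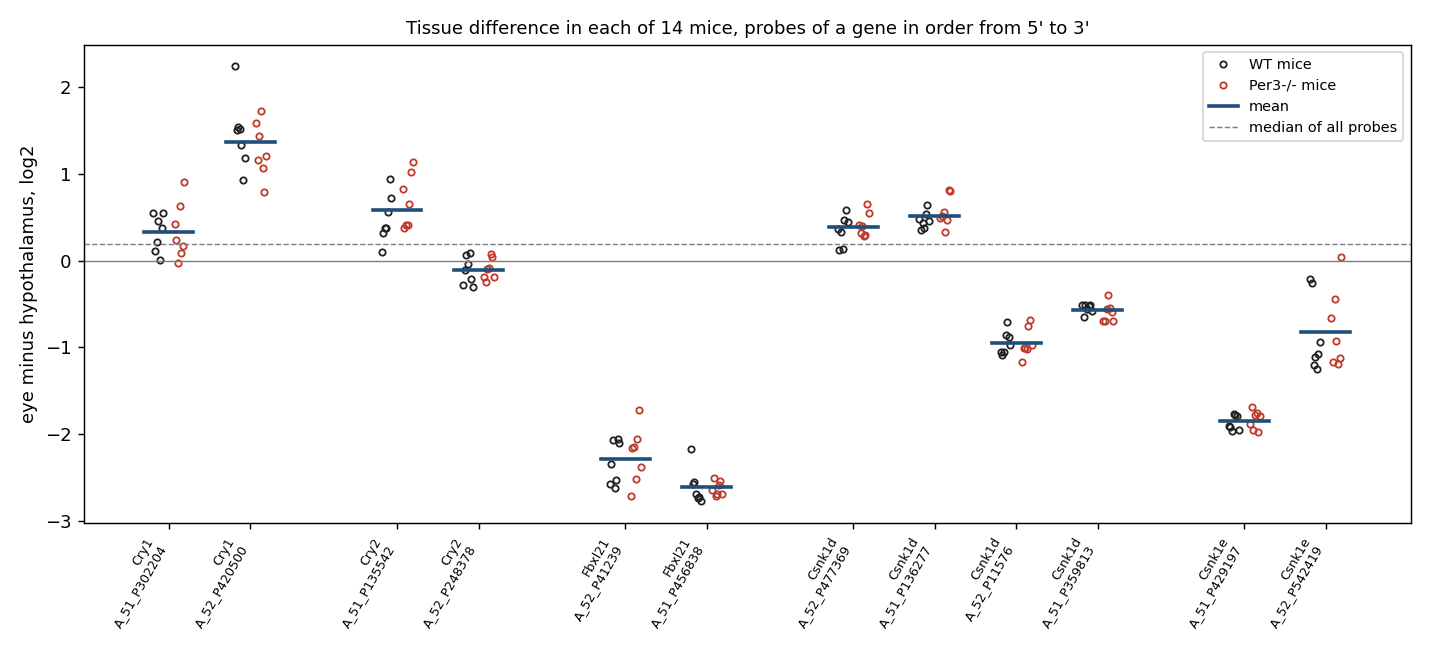
Eye minus hypothalamus difference (vertical axis, log2) in each of 14 mice for the 12 probes, in order from 5′ to 3′ within each gene, with the mean of each probe as a bar and the median of all probes as a dashed line. With arrays scaled to the 75th percentile, the Csnk1d probes step from above 0 at the 5′ end to below 0 at the 3′ end, the Cry1 probes both lie above 0 in the mean with the 3′ probe higher, and WT and Per3-/- mice intermix.

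The other genes of the pathway were counted in 3 lists. The list for the turnover of CRY and PER proteins held 14 names, with Cdt2 and Dtl for the same gene. Its 13 genes were measured by 25 probes and 0 were called between genotypes in either tissue. At an unadjusted p under 0.05 there were 0 in the hypothalamus and 1 in the eye. That was Dtl, the receptor of another ligase complex, whose probe A_52_P14686 had a mean of -2.12 in WT and -2.51 in Per3-/- eyes (difference -0.39, SE 0.08, limma adjusted p = 0.735). In the hypothalamus the lowest p belonged to Fbxl2 (difference -0.06, SE 0.04) and Ddb1, a scaffold of that complex (-0.07, SE 0.05). Between tissues 9 of the 25 probes were called higher and 13 lower in the eye. Fbxl2 had a probe at -2.46 and another at 1.43, Fbxw7, an F-box protein, was at -1.89 and -1.61, and Usp2, a deubiquitinase, at 1.29 and 0.33. The Dtl probe, which was well above background on all 14 eye arrays but on 2 of 8 arrays of each genotype in the hypothalamus, was called higher in the eye.

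Of 18 genes for other kinases and phosphatases of clock proteins, 39 probes were measured and 0 were called between genotypes. None reached an unadjusted p under 0.05 in the hypothalamus and 2 did in the eye, a dim probe of Mapk8, which encodes the kinase JNK1 (-0.52, SE 0.16), and a probe of the phosphatase Ppp1cc (0.15, SE 0.06). Csnk1a1, casein kinase 1 alpha, had 4 probes with differences of -0.04 to 0.06 in the hypothalamus and -0.14 to 0.03 in the eye. Between tissues these 4 probes also disagreed, at -0.61, -0.48, 0.55 and 0.09. Over the list 12 probes were called higher and 22 lower in the eye, and the lowest values belonged to probes of the kinases Mapk8 (-2.75, well above background on 10 of 14 eye arrays), Mapk9 (-2.35) and Gsk3b (-2.28). The other probes of Mapk9 (-1.74 and -1.01) and Gsk3b (-1.35) were also lower, whereas Mapk8 had a probe at -1.73 and its brightest probe at 0.29. The phosphatase Ppp1cc was higher in the eye at both probes (1.65 and 1.48), and Ppp5c was higher at one (1.501) and lower at the other (-0.78).

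Of 23 names for the core clock and its outputs, 21 were measured by 38 probes and 0 were called between genotypes, or 1 lower in the hypothalamus under quantile normalization. At an unadjusted p under 0.05 there were 3 in the hypothalamus and 4 in the eye. Besides Per3 they included Dbp, a clock-controlled transcription factor, whose mean signal was 4.90 in WT and 4.65 in Per3-/- hypothalamus (difference -0.25, SE 0.10, limma adjusted p = 0.991) and stood at 4.91 and 4.57 in the eye (-0.34, SE 0.12), and Nfil3, which represses the same elements (0.30, SE 0.10 in the eye). Between tissues 19 probes were called higher and 13 lower in the eye, and probes of several genes went both ways. Clock itself was higher in the eye at its brightest probe (1.41) and at another (1.46) but lower at the other two (-2.12 and -0.77). The nuclear receptor gene Rorb was higher at a pair of probes (3.22 and 2.37) and lower at the other (-0.89), and its relative Rora was lower at all 3 (-2.49, -0.68 and -0.64). The repressor gene Bhlhe41 was higher at its brighter probe (0.31) and lower at the dimmer one (-2.59), which was well above background on 11 of 14 eye arrays. The percentages called between tissues in the 3 lists were 88, 87.2 and 84.2, close to the 83.1% of all probes.

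The 3 genes that varied most like each member were found over the 30 arrays, after removal of the 4 group means. The search covered 25230 of the 25301 probes well above background on all arrays. These are descriptions, and arrays of 1 slide share their handling. Each likeness is that of 1 probe and need not hold for the gene. With the other Cry1 probe r was 0.22, or 0.60 with slide means removed, and with the other Cry2 probe -0.08. For Csnk1d it was -0.04, -0.02 and 0.04 with the other probes of the gene. For Cry1 they were Lztfl1 (Pearson's r = 0.91, Spearman's rho = 0.85), Lmnb2 (r = 0.89, rho = 0.78) and Virma (r = 0.88, rho = 0.84), and r was 0.81 to 0.83 without the 2 arrays farthest from the median of Cry1. For Cry2 they were Chrnb2 (r = 0.81, rho = 0.75), Nrcam (r = 0.81, rho = 0.81) and Dstyk (r = 0.80, rho = 0.79), for Csnk1d Arhgap6 (r = 0.78, rho = 0.75), Myo5a (r = 0.77, rho = 0.68) and Dcaf12l1 (r = 0.76, rho = 0.70), and for Csnk1e Mtdh (r = 0.83, rho = 0.71), Arhgef6 (r = 0.82, rho = 0.76) and Rrp1 (r = 0.79, rho = 0.73). Without the 2 farthest arrays of the member, r was 0.73 to 0.76 for Cry2, 0.60 to 0.67 for Csnk1d and 0.69 to 0.76 for Csnk1e. With slide means removed, the Csnk1d genes moved to places 15, 12 and 17, and those of Cry1, Cry2 and Csnk1e to places between 1 and 17.

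For Fbxl21 the gene most alike was Dbp (r = 0.79, rho = 0.77), then Pla2g2c (r = 0.78, rho = 0.74) and Dach2 (r = 0.74, rho = 0.66), with r of 0.70 to 0.74 without the 2 farthest arrays. When slide means were also removed, these values fell to 0.44, 0.49 and 0.58, and the 3 genes moved to places 1295, 772 and 229 of 25229 probes. Between the brightest probes of 2 members r ran from -0.33 between Cry1 and Csnk1e to 0.43 between Fbxl21 and Csnk1e, and the latter was 0.05 without slide means.

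In the RefSeq promoters of GRCm38.p6, which run from 250 bases before to 50 after a start site, 4 of the 5 genes were found. The E-box CACGTG, which reads the same on both strands, was present in 1 of the 4, Cry1, and in 8.09% of all 27025 genes in the table. The D-box TTATGTAA and the cAMP response element TGACGTCA, searched on both strands, were in 0 of the 4 and in 1.11% and 2.03% of all genes. The Cry1 element, in capitals, lies 60 bases before the start site at chr10:85185100-85185123 on the minus strand and is shown as the only match among these promoters. It is a match of letters, and no binding was measured.

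Cry1 E-box: gccggtggtCACGTGgggtgcatg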

How the data were processed

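The data are 30 arrays of 60-base probes with 1 label (Cy3). The authors extracted the intensity of each spot with Agilent Feature Extraction 10.7.1.1 and deposited processed intensities, which per the file headers are linear and have the background subtracted and spatial trends removed. The deposited table of log2 values, in which the 75th percentile of the array and then the tissue median of the probe are taken off, served as an alternative. The deposited 0/1 marks gave well above background. Spots with a mark for uneven signal or outlier, 36 to 91 per array, did not enter the averages. Over all arrays this left 114 probe values without a signal. The methods name GeneSpring for the analysis.

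Processed intensities of 41174 non-control probes were taken to log2, averaged per probe, and the log2 of the 75th percentile of the array was subtracted. Positions are those of the hypothalamus files (mm9). Gene names came from RefSeq through accession (26918 probes), symbol (5082) or synonym (817), otherwise from the array files (8357). limma 3.58.1 in R 4.3.3 compared genotypes within a tissue, and fitted tissue and interaction on the 30 arrays together, each mouse being a random block (correlation 0.059). Eye and hypothalamus arrays were assigned to a mouse by genotype and replicate number, since the labels do not name mice. Adjustment was by Benjamini-Hochberg on all 41174 probes, and calls were made at 0.05. Single values were tested by two-sided exact permutation in Python 3.11.15 (numpy 2.4.6, pandas 2.3.3, scipy 1.17.1). The script was tested on simulated data. The probe of highest mean signal stood for a gene; the named genes were all member probes, Per3, and in each list the 4 probes of lowest unadjusted p between genotypes and the 3 of largest tissue difference each way, and the 3 genes most like each member. Some genes that this rule names are not reported here. Members and lists were chosen with earlier results of these data known.

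Each tissue used 4 slides with both genotypes on each, 2 arrays on slide 1 of the eye and 4 on the others. Equal replicate numbers are not tied to litters in the labels. Deviations of equally numbered WT and Per3-/- arrays correlated by 0.109 to 0.627 in the eye (6 pairs) and by -0.03 to 0.32 in the hypothalamus (8 pairs). The arrays of each pair also shared a slide, and the part of the slide in these correlations was not tested. An alternative took the pairs as a block in both tissues, without the eye arrays that had no partner. The replicate block changed no call of a member, in either tissue. Alternatives were quantile normalization, median centring, normexp background correction (offset 50), a filter on dim probes, slide or replicate as a block, the methods' unpaired test, and leaving out each array. On arrays depth is signal over background, and precision is limited by how many arrays there are. Within a tissue each array is 1 mouse, so p-values between genotypes cover the spread between mice. In the tissue and interaction fits 14 mice gave an array of each tissue. The p-values between tissues do not separate tissue from slide.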

Additional observations from a re-analysis of the deposited data

Results flagged for a closer look

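Among 48 groups of 7 or 8 arrays (12 probes in 4 groups), 1 held an array far from the others, where chance flags about 1 in 20. For Cry1, probe A_52_P420500 had a signal of -4.42 in hypothalamus WT replicate 1, the nearest WT array was at -3.71, and the gap was 0.692 of the range of the group against a limit of 0.526 for 8 arrays. The mean of the group was -3.62. Without this array the Per3-/- minus WT difference went from 0.22 to 0.10, and it was not called in either case. The other Cry1 probe had -3.07 in the same array, inside the range of its group. The cause was not tested.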

How the results depend on the processing

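The counts of member probes called were 0 between genotypes in both tissues and 0 for the interaction under every alternative run, leaving out any 1 array included, and for eye against hypothalamus they lay between 9 and 12. Of the tissue differences, Cry1 A_51_P302204 was -0.0802 under quantile normalization and -0.108 with median centring, Csnk1d A_52_P477369 was -0.0639 with median centring and Csnk1e A_52_P542419 was 0.0467 with normexp, which are of opposite sign to the values reported. No longer called were Cry2 A_51_P135542 (0.0103) and Cry2 A_52_P248378 (-0.0164) under quantile normalization, Csnk1d A_51_P136277 (0.0720) with median centring, and Cry2 A_52_P248378 (-0.0935) in Per3-/- arrays alone. All 12 stayed called without any 1 array. Under quantile normalization, 1 core clock probe was called between genotypes in the hypothalamus in place of 0, in a list that includes Per3. The cause of these changes was not tested.

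Several genotype differences changed sign between settings, and no sign change came with a call. In the hypothalamus Csnk1d A_51_P359813 was 0.000979 under quantile normalization and 0.00165 with normexp. In the eye Cry2 A_52_P248378 was 0.00106 and Csnk1e A_51_P429197 0.00430 under quantile normalization, while normexp gave 0.202 for Fbxl21 A_51_P456838, 0.336 for Fbxl21 A_52_P41239 and -0.00352 for Csnk1d A_52_P11576. With the replicate block, which pairs equal numbers, the eye values of Csnk1d A_51_P359813 and Csnk1e A_51_P429197 were 5.13e-05 and 0.0262, and the block changed no call of a member in either tissue, but the count of calls over all probes was 5 for the hypothalamus, where it was 17 without the block, and 1 for the eye, where it was 8. Normexp gave 10 calls among all hypothalamic probes, and 4 among those of the eye. For the interaction Csnk1d A_52_P11576 was -0.00411 under quantile normalization, and normexp gave 0.120 for Cry1 A_52_P420500, 0.285 for Fbxl21 A_51_P456838, -0.0137 for Csnk1d A_52_P11576 and -0.0646 for Csnk1e A_51_P429197.

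Leaving out 1 array in turn, the genotype difference ranged in the hypothalamus from -0.0213 to 0.00894 for Csnk1d A_51_P359813, -0.0119 to 0.0403 for Csnk1d A_52_P11576, -0.0458 to 0.0111 for Cry1 A_51_P302204, -0.0526 to 0.0183 for Csnk1d A_52_P477369, -0.0656 to 0.0141 for Csnk1e A_52_P542419 and -0.0571 to 0.0113 for Csnk1d A_51_P136277. In the eye the ranges were -0.00694 to 0.0413 for Csnk1d A_52_P11576, -0.0478 to 0.0251 for Csnk1e A_51_P429197, -0.0655 to 0.0634 for Cry1 A_51_P302204, -0.0252 to 0.0300 for Cry2 A_52_P248378, -0.0196 to 0.0982 for Cry1 A_52_P420500 and -0.0428 to 0.178 for Csnk1e A_52_P542419. For the interaction they were -0.0909 to 0.0282 for Fbxl21 A_51_P456838, -0.0215 to 0.0306 for Csnk1d A_52_P11576, -0.0217 to 0.117 for Fbxl21 A_52_P41239, -0.0552 to 0.0743 for Cry1 A_51_P302204, -0.00123 to 0.0678 for Csnk1e A_51_P429197 and -0.0177 to 0.203 for Csnk1e A_52_P542419. In every other member probe the sign stayed the same. Dim probes limit what can be said of Fbxl21 A_52_P41239 and Csnk1e A_52_P542419 in the eye.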
